A study of Homo sapiens with 6 samples.

Results

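The 10 Kruppel-like factors KLF3, KLF4, KLF5, KLF6, KLF7, KLF9, KLF10, KLF11, KLF13 and KLF16 were followed in HepG2 cells after TGFβ, as 10 of the 57773 genes in the count table. They were found by gene name, and the names were chosen by family with the read counts and fold changes of this same comparison of TGFβ with vehicle already known. Hence their fold changes and false discovery rates (FDR) only describe the size of a difference against the spread between cultures. HepG2 is a single line from a human liver tumor. Of its 6 cultures, 3 received vehicle and 3 received recombinant human TGFB1 ligand at 5 ng/mL, all for 3 h. Both groups carry the culture numbers 1 to 3, and cultures of equal number deviated together. Numbers 1 and 2 were in lanes 1 and 3 in both groups, and number 3 was in lane 4 with vehicle and lane 5 with TGFβ. The part of the lane in the shared deviation was not tested. Polyadenylated RNA was sequenced, and reads on genes were counted.

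Kruppel-like factors are transcription factors whose C-terminal zinc fingers bind GC-rich and CACCC-type DNA, and they share this domain with the SP factors. Outside the zinc fingers they differ in the partners they recruit. KLF3 belongs to a branch that binds the corepressor CtBP, KLF4, KLF5, KLF6 and KLF7 to a branch known for activation through acetyltransferases, and KLF9, KLF10, KLF11, KLF13 and KLF16 to a branch that binds the SIN3 corepressor. KLF10 was originally described as a TGFβ-inducible early gene, and KLF11 is its close relative. KLF6 is known as an early response gene of liver stellate cells, and KLF15, which is outside the 10, as a regulator of gluconeogenesis in hepatocytes.

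The 250 bases before the annotated start are shown for 3 members, KLF7 and KLF11 because their RNA was higher with TGFβ and KLF6 because it had the highest level per length with vehicle and was not called. They come from RefSeq on GRCh38.p14, and for genes with several starts the window before the outermost start listed there is given. Bases before a listed start can lie inside a transcript that begins at another start. The KLF7 window is chr2:207167247-207167496 on the minus strand, the KLF11 window chr2:10043579-10043828 on the plus strand and the KLF6 window chr10:3785210-3785459 on the minus strand. Each is written 5′ to 3′ toward the start, and capitals mark the core SMAD motif, CAGAC or GTCTG.
KLF7: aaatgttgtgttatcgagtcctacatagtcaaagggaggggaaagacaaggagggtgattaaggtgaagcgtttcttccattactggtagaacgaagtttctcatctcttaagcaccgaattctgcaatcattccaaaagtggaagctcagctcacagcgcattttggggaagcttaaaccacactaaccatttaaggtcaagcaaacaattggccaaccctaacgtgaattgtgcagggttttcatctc
KLF11: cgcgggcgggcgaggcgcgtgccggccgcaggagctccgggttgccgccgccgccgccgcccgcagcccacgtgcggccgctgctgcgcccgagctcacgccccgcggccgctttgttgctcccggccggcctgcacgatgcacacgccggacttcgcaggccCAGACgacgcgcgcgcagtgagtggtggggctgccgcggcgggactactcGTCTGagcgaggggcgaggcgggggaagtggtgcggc
KLF6: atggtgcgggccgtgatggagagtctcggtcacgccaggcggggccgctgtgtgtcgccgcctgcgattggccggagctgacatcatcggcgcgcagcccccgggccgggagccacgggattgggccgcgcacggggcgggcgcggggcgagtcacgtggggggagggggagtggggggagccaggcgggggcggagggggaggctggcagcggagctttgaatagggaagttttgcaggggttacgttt
The KLF11 window held both forms of the motif, CAGAC with its first base 87 bases and GTCTG 37 bases before this listed start. Neither form was in these windows of KLF7 and KLF6. The GENCODE annotation on GRCh37 lists 6 transcripts of KLF11, and whether the KLF11 window lies within one of them was not examined. The RefSeq table matched 8 of the 10 members with 13 windows. KLF3 and KLF10 were not analysed here. Of the 13 windows, 3 (23.1%) held a core SMAD motif, in KLF7 (142 bases before another of its starts), KLF11 and KLF13, against 38.0% of the 35116 windows of all genes. A GC box (GGGCGG or CCGCCC), the kind of element that SP and Kruppel-like factors bind, was in 8 windows (61.5%) of 7 members, against 42.6% of all windows. CACCC or GGGTG was in 6 windows (46.2%), against 54.7%. A cAMP response element (TGACGTCA) was in 1 window, before another start of KLF11, and in 1.65% of all windows. The AP-1 motif (TGACTCA or TGAGTCA) and the SMAD palindrome (GTCTAGAC) were in 0 of the 13, against 4.2% and 0.182%. Each motif was counted on both strands, and matches that share bases were counted for each motif. The GC content of the member windows ranged from 32.4% in KLF9 to 86.4% in KLF16, with a median of 58.0% over all windows. These matches describe letters in the windows and do not show binding.

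The libraries held between 60815385 and 100099136 reads on genes. All 8 hepatocyte markers were measured in every culture, with ALB between 13800 and 17200 CPM (read counts scaled to library size, after TMM normalization). Of the 4 leukocyte markers, PTPRC and CD3E had at most 0.0137 CPM, while LYZ had 949 to 1420 CPM and CD68 had 34.6 to 40.5 CPM. Of the 3 endothelial markers in the table, VWF and CDH5 had at most 0.159 CPM and TIE1 had 0.949 to 2.37 CPM. The summed level of 5 fibroblast and stellate markers was 5.1 to 9.36 CPM with vehicle and 11.3 to 24.2 CPM with TGFβ, nearly all of it PDGFRB, while LUM and DCN had at most 0.0845 CPM. The part of PDGFRB-expressing cells in the results was not tested. In bulk samples fewer cells with a transcript and less transcript per cell cannot be told apart.

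All 10 members had enough reads for testing by edgeR's filter. At an FDR under 0.05 in edgeR's quasi-likelihood test, 3 of the 10 were higher with TGFβ, KLF7, KLF10 and KLF11, and 0 were lower. Over all 22747 genes tested, 4.12% were called, 3.11% higher and 1.01% lower. At an unadjusted P under 0.05, 5 members were higher and 0 lower, against 1976 and 1131 of the 22747 genes tested. The median log2 fold change (log2FC, TGFβ over vehicle) of the 10 was 0.13, with a range from -0.19 to 2.15, and that of all genes tested was -0.01. With the culture number as a block, KLF6 was called in addition, as lower, where 11.8% of all genes tested were called, 8.08% higher and 3.75% lower. Every TGFβ culture lay above every vehicle culture for 5 members and below for 2, where 10.4% and 8.23% of all genes tested did so. For a single gene without overlap the exact permutation test gives P = 0.1 (two-sided), the smallest that 3 cultures against 3 allow.

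**Figure D1:**
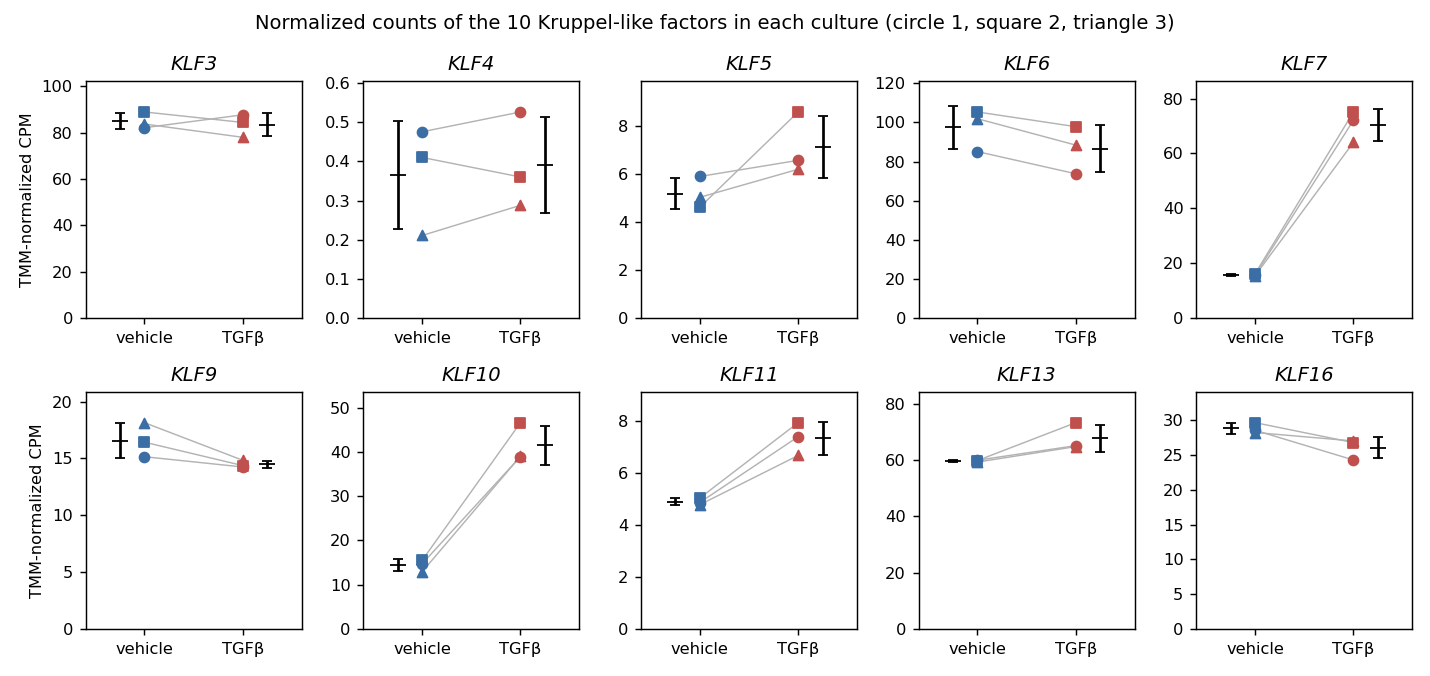
TMM-normalized CPM of the 10 Kruppel-like factors in each vehicle (blue) and TGFβ (red) culture. Symbols mark the culture number, gray lines join equal numbers, and bars beside the points are mean ± SD (n = 3). KLF7 and KLF10 lie far apart between the groups, KLF11 by less, and KLF3, KLF4 and KLF6 overlap.

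Among the activator branch, KLF7 had the largest rise of the 10 members. KLF7 (ENSG00000118263, chr2:207938861-208031991, minus strand) is a factor known from neuronal development. Gene positions here are in hg19 as the count table gives them. It had 15.7, 16.2 and 15.5 CPM in vehicle cultures 1, 2 and 3 and 72.1, 75.1 and 64.1 CPM in TGFβ cultures 1, 2 and 3. The groups were far apart, and the 3 vehicle cultures lay close together. The mean rose from 15.8 ± 0.362 CPM (SD, n = 3) to 70.4 ± 5.72 CPM (SD, n = 3), a 4.45-fold change (log2FC 2.15, standard error, SE, 0.08, FDR 3.48e-06). The log2 ratio within culture numbers 1, 2 and 3 was 2.2, 2.21 and 2.04. Of the 22747 genes tested, KLF7 had the unadjusted P of rank 2 and the log2FC of rank 45 from the top. It kept its call in all 13 alternatives, with log2FC values from 2.09 to 2.21.

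Other features at the KLF7 locus or named after it had few reads. KLF7-IT1, a noncoding RNA that the GENCODE annotation on GRCh37 places in an intron of KLF7 on the same strand (chr2:207985608-207986768), was counted 7, 10 and 7 times under vehicle and 23, 17 and 17 times under TGFβ. Every TGFβ culture had more of these reads, and the log2FC of KLF7-IT1 was 1.12 (SE 0.35, FDR 0.134). The processed pseudogene KLF7P1 at chr3:170670639-170671686 had 9 reads over the vehicle and 37 over the TGFβ cultures, and reads of such a copy may belong to its parent gene. The miRNA gene MIR2355 in an intron of KLF7 had 1 read over each group, and mature miRNAs are not captured by this kind of library. These counts are small against the 956 to 1389 reads of KLF7 with vehicle and 4669 to 6987 with TGFβ.

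KLF6 (ENSG00000067082, chr10:3818188-3827473, minus strand) had 85.1, 105 and 102 CPM with vehicle and 73.7, 97.8 and 88.4 CPM with TGFβ. The groups overlapped, and culture number 1 was the lowest in both. The mean was 97.4 ± 10.8 CPM (SD, n = 3) with vehicle and 86.6 ± 12.1 CPM (SD, n = 3) with TGFβ, a log2FC of -0.17 (SE 0.12, 95% interval -0.43 to 0.09, FDR 0.64). Within numbers 1, 2 and 3 the log2 ratios were -0.21, -0.11 and -0.20, all on the lower side. With the block the log2FC was -0.17 with a SE of 0.05 and KLF6 passed the threshold (FDR 0.0485), as it did in no other alternative.

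KLF5 (ENSG00000102554, chr13:73629114-73651676, plus strand), a factor of proliferating epithelium, had 5.9, 4.62 and 5.03 CPM with vehicle and 6.57, 8.59 and 6.2 CPM with TGFβ. The groups did not overlap, and TGFβ culture 2 stood above the other two. The log2FC of KLF5 was 0.46 (SE 0.16, 95% interval 0.09 to 0.82, FDR 0.206, and 0.0697 with the block), and it was 0.29 without TGFβ replicate 2. Within the culture numbers the log2 ratio was 0.16, 0.89 and 0.30. KLF4 (ENSG00000136826, chr9:110247133-110252763, minus strand), known from epithelial differentiation and pluripotency, was close to the lower end of detection. Its reads numbered 42, 34 and 13 in the vehicle and 51, 29 and 21 in the TGFβ cultures, and the groups overlapped. Its log2FC was 0.09 (SE 0.36, FDR 0.954), and the 95% interval from -0.71 to 0.88 held changes of either sign. Leaving out vehicle replicate 3 or TGFβ replicate 1 moved the log2FC to -0.16 and -0.20.

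In the SIN3-binding branch, KLF10 and KLF11 were higher with TGFβ. KLF10 (ENSG00000155090, chr8:103661007-103668130, minus strand) had 14.7, 15.5 and 12.9 CPM with vehicle and 39, 46.6 and 39 CPM with TGFβ. Each TGFβ culture was well above each vehicle culture. The mean rose from 14.4 ± 1.33 CPM (SD, n = 3) to 41.5 ± 4.4 CPM (SD, n = 3), a 2.89-fold change (log2FC 1.53, SE 0.10, FDR 5.03e-05). Within numbers 1, 2 and 3 the log2 ratio was 1.4, 1.59 and 1.6. KLF10 kept its call in all 13 alternatives, and leaving out single cultures gave log2FC values from 1.43 to 1.58.

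KLF11 (ENSG00000172059, chr2:10182976-10194963, plus strand) had 4.86, 5.03 and 4.77 CPM with vehicle and 7.39, 7.93 and 6.67 CPM with TGFβ. The groups were apart, by a smaller step than for KLF10. The mean rose from 4.89 ± 0.131 CPM (SD, n = 3) to 7.33 ± 0.633 CPM (SD, n = 3), a log2FC of 0.58 (SE 0.12, FDR 0.0275), with ratios of 0.60, 0.66 and 0.48 within the culture numbers. The FDR was 0.00299 with the block. It missed the threshold without vehicle replicate 1 (0.0779), vehicle replicate 2 (0.0996), vehicle replicate 3 (0.131), TGFβ replicate 1 (0.0937) and TGFβ replicate 2 (0.146), while the log2FC stayed between 0.51 and 0.64. The noncoding gene RP11-254F7.3 overlaps the last 416 bases of KLF11 on the other strand and had 93 reads over the vehicle and 158 over the TGFβ cultures. Whether counting used the strand is not given in the sources used here, so its reads and those of KLF11 cannot be told apart there.

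The other 3 factors of this branch did not pass the threshold. KLF13 (ENSG00000169926, chr15:31619058-31727868, plus strand), a regulator of chemokine expression in T cells, had 60.0, 59.9 and 59.4 CPM with vehicle and 65.2, 73.4 and 64.9 CPM with TGFβ. Its groups did not overlap, and the log2FC was 0.18 (SE 0.07, 95% interval 0.02 to 0.35, FDR 0.301, and 0.0605 with the block). KLF9 (ENSG00000119138, chr9:72999503-73029540, minus strand), a glucocorticoid-responsive factor, had 15.1, 16.4 and 18.1 CPM with vehicle and 14.2, 14.4 and 14.8 CPM with TGFβ. All TGFβ cultures were below the vehicle cultures by a narrow gap, with a log2FC of -0.19 (SE 0.10, 95% interval -0.41 to 0.02, FDR 0.446). KLF16 (ENSG00000129911, chr19:1852399-1863567, minus strand) had 28.6, 29.7 and 28.3 CPM with vehicle and 24.3, 26.8 and 27.0 CPM with TGFβ. These groups were also apart, with a log2FC of -0.15 (SE 0.08, 95% interval -0.32 to 0.03, FDR 0.492). The noncoding gene CTB-31O20.6 shares 483 exonic bases with KLF16 on the other strand and had 1899 reads over the vehicle and 1838 over the TGFβ cultures, so some reads there can belong to either gene. Within the introns, CTB-31O20.8 in KLF16 had 40 and 31 reads over the groups, and the pseudogene UBE2CP4 in KLF13 had 134 and 123.

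KLF3 (ENSG00000109787, chr4:38665817-38702663, plus strand), the CtBP-binding repressor, had 82.2, 88.9 and 83.8 CPM with vehicle and 87.7, 84.4 and 78.0 CPM with TGFβ. The groups overlapped, and the log2FC of KLF3 was -0.03 (SE 0.07, FDR 0.93). Its 95% interval ran from -0.19 to 0.14. The antisense gene RP11-617D20.1, whose current name is KLF3-AS1, shares 265 exonic bases with KLF3 and had 1021 reads over the vehicle and 1313 over the TGFβ cultures (log2FC 0.22, SE 0.19, FDR 0.731). AC021860.1, a feature of the table at the same place, had 472 and 592 reads over the groups.

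**Figure D2:**
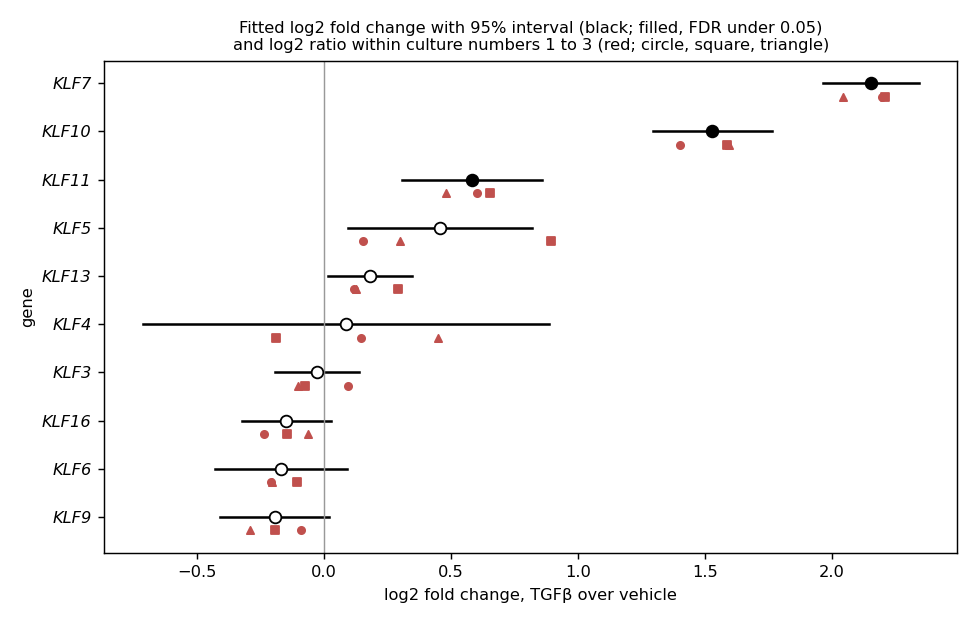
Fitted log2FC of each member, TGFβ over vehicle, with its 95% interval (black; filled circles, FDR under 0.05) and the log2 ratio within culture numbers 1, 2 and 3 (red circle, square and triangle). KLF7 at 2.15, KLF10 at 1.53 and KLF11 at 0.58 are filled, and the intervals of KLF5 and KLF13 lie just above 0.

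The order of the members was compared per length with the RPKM that the authors deposited (reads per kilobase of coding length, scaled to library size). With vehicle, KLF6 was the highest at 11.3, 14.6 and 13.5 RPKM in cultures 1, 2 and 3, and KLF3 followed at 10.7, 12.0 and 10.9 RPKM. These ranges overlapped. KLF16 (7.8 to 8.53 RPKM) and KLF13 (5.64 to 5.92 RPKM) came next without overlap with their neighbors. KLF10 (2.63 to 3.29 RPKM) and KLF9 (2.39 to 2.85 RPKM) overlapped each other, and KLF7 (1.37 to 1.49 RPKM), KLF5 (1.01 to 1.24 RPKM), KLF11 (0.849 to 0.931 RPKM) and KLF4 (0.0487 to 0.11 RPKM) followed without overlap.

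With TGFβ, KLF6 (9.75 to 13.2 RPKM) and KLF3 (9.6 to 11.3 RPKM) still stood at the top, and KLF10 overlapped KLF3 at 7.55 to 9.66 RPKM. KLF10 moved from place 5 to place 3 and KLF7 from place 7 to place 6, at 5.36 to 6.73 RPKM, and overlapped KLF13 at 5.85 to 7.09 RPKM. KLF16 lay at 6.68 to 7.53 RPKM and overlapped both KLF13 and KLF7. Lower and without overlap with these were KLF9 at 2.22 to 2.3 RPKM and KLF4 at 0.0631 to 0.121 RPKM. KLF11 at 1.13 to 1.43 RPKM then overlapped KLF5 at 1.24 to 1.83 RPKM. The summed RPKM of the 10 members was 44.6, 50.5 and 46.6 with vehicle and 53.2, 61.0 and 51.2 with TGFβ in cultures 1, 2 and 3. KLF7 made up 2.93% to 3.11% of this sum with vehicle and 10.5% to 11.9% with TGFβ, and KLF10 made up 5.64% to 6.74% and 14.7% to 15.8%. The share of KLF6 was 25.4% to 29.0% with vehicle and 18.4% to 21.8% with TGFβ, and such a share also moves with the level of the other members.

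**Figure D3:**
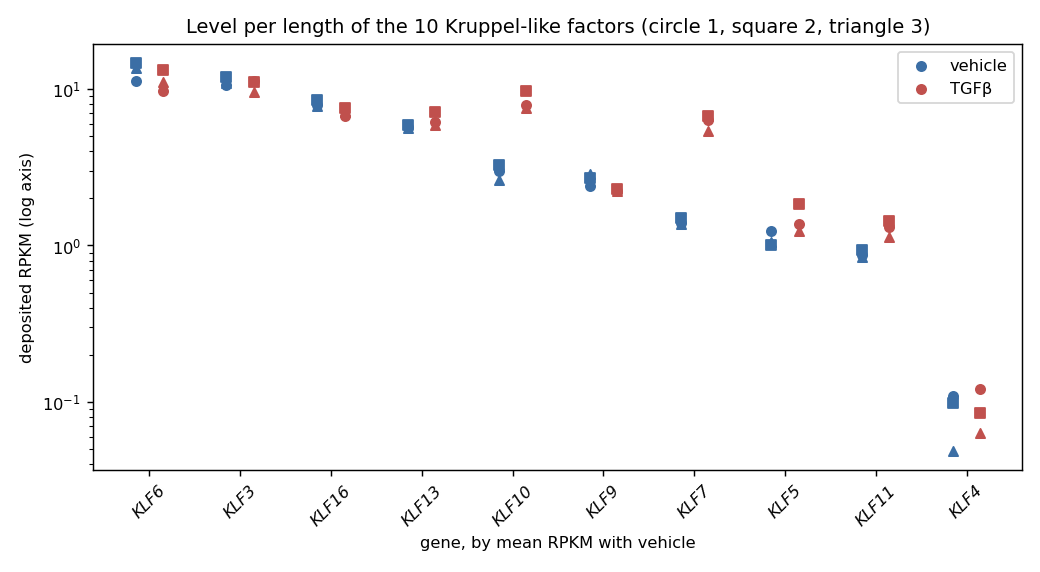
Deposited RPKM on a log axis for the 10 members, ordered by their mean with vehicle; blue is vehicle, red is TGFβ, and symbols mark the culture number. KLF10 and KLF7 stand higher with TGFβ, at 7.55 to 9.66 and 5.36 to 6.73 RPKM, while KLF4 stays at or below 0.121 RPKM in all 6 cultures.

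The remaining KLF and SP genes were a list of 17, of which 16 were in the table and 11 had enough reads for testing. At an FDR under 0.05, 1 was higher, SP6, and 1 was lower, KLF15, against 3.11% and 1.01% of all genes tested. The median log2FC of the 11 was 0.13. KLF15 (ENSG00000163884, chr3:126061478-126076285) had 7.05, 7.36 and 7.15 CPM with vehicle and 2.88, 2.71 and 2.48 CPM with TGFβ. Its vehicle level per length, 2.02 to 2.19 RPKM, lay between those of KLF9 and KLF7. The log2FC of KLF15 was -1.42 (SE 0.13, FDR 0.000305), larger in size than that of any member other than KLF7 and KLF10, and it kept its call in all 13 alternatives. SP6, an epithelial factor known from tooth development, was counted 19, 10 and 5 times under vehicle and 48, 44 and 45 times under TGFβ. Its log2FC was 1.93 (SE 0.35, FDR 0.0125), and the call was lost without vehicle replicate 2 (FDR 0.0723) or vehicle replicate 3 (FDR 0.056).

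Of this list, SP3 and SP5 had the most reads. SP3, a ubiquitous factor, had 125 to 131 CPM with vehicle and 138 to 155 CPM with TGFβ, a log2FC of 0.22 (SE 0.07, FDR 0.166, and 0.0184 with the block). SP5, a known Wnt target, had 116 to 157 CPM with vehicle and 103 to 135 CPM with TGFβ, a log2FC of -0.28 (SE 0.13, FDR 0.421, and 0.00943 with the block). KLF1, the erythroid factor, was too low for the filter, with 4 reads over the vehicle and 33 over the TGFβ cultures. In the alternative that kept low genes, KLF1 had a log2FC of 2.8 with an SE of 0.77 (FDR 0.0277). KLF14, KLF17 and SP8 had 2, 1 and 2 reads over the vehicle and 3, 6 and 3 over the TGFβ cultures, and SP7 had 0 in both.

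**Figure D4:**
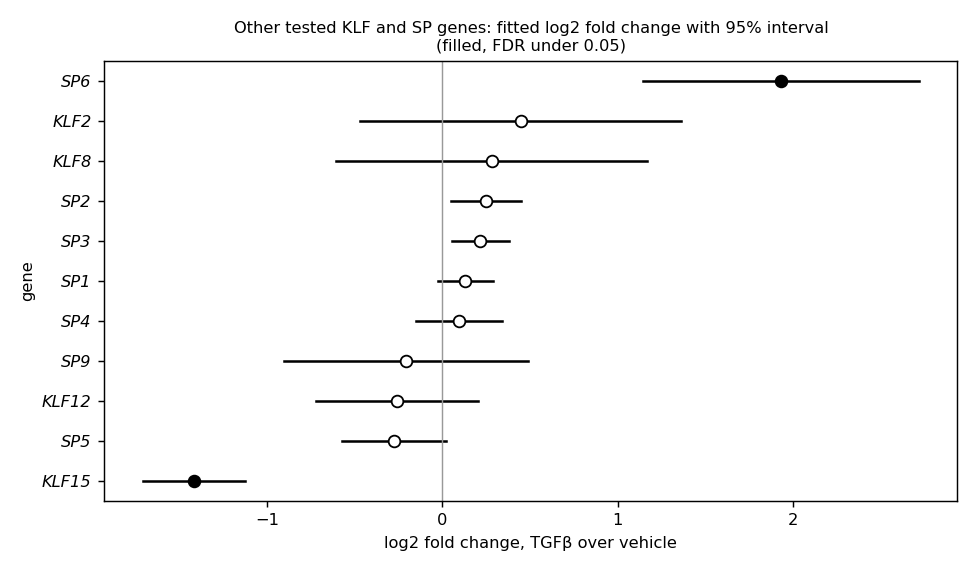
Fitted log2FC, TGFβ over vehicle, of the 11 other KLF and SP genes with enough reads, with 95% intervals; filled circles have an FDR under 0.05. KLF15 lies at -1.42 and SP6 at 1.93, and the widest intervals among the open circles, those of KLF2, KLF8 and SP9, cross 0.

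Proteins that bind or modify Kruppel-like factors were listed as 20 genes, all tested. Of these, 2 were higher and 0 lower, with a median log2FC of 0.04, against 3.11% and 1.01% of all genes tested. With the block 5 of the 20 were higher and 0 lower, against 8.08% and 3.75%. Of the called genes, FHL3, a LIM protein that binds KLF3, had 9.84 to 13.2 CPM with vehicle and 17.0 to 24.6 CPM with TGFβ, a log2FC of 0.72 (SE 0.16, FDR 0.0381). That call was lost without vehicle replicate 1 (FDR 0.0892), vehicle replicate 2 (0.0873), vehicle replicate 3 (0.164) or TGFβ replicate 2 (0.128), with total-count scaling (0.0569) and with limma-voom (0.0512). The block added SIN3A (log2FC 0.25, FDR 0.0838 without and 0.00703 with the block), the scaffold that the SIN3-binding branch recruits, and the ubiquitin ligases WWP1 (0.31, FDR 0.142 and 0.00766) and SIAH1 (0.26, FDR 0.151 and 0.0283). The most abundant genes of the list, RBBP4 and NCOR1, had log2FC values of -0.01 (FDR 0.963) and 0.04 (FDR 0.901).

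Genes reported in other systems as targets of Kruppel-like factors were listed as 20 genes, of which 19 were tested. Of the 19, 6 were higher and 3 lower, with a median log2FC of 0.31, against 3.11% and 1.01% of all genes tested. With the block 8 of the 19 were higher and 3 lower, against 8.08% and 3.75%. Several are also known as direct targets of TGFβ signaling, and which factor acts on them was not tested. SMAD7, an inhibitory SMAD that KLF10 and KLF11 are reported to repress, had 13.1 to 17.1 CPM with vehicle and 47.6 to 54.1 CPM with TGFβ, a log2FC of 1.72 (SE 0.11, FDR 3.73e-05). The growth factor gene PDGFA rose by a log2FC of 1.62 (FDR 0.000109), the cyclin gene CCND1 by 0.68 (FDR 0.000689), the ligand gene TGFB1 by 0.65 (FDR 0.00336) and the receptor gene TGFBR1 by 0.43 (FDR 0.00553). CDH1, which encodes E-cadherin, had a log2FC of 0.80 (FDR 0.0173). The call of CDH1 was lost without vehicle replicate 2 (FDR 0.127), vehicle replicate 3 (0.0937), TGFβ replicate 1 (0.07) or TGFβ replicate 2 (0.115), and without the filter on low counts (0.121). Lower were TGFBR2 (log2FC -0.95, FDR 0.000543) and the gluconeogenic genes PCK1 (-2.79, FDR 0.0033) and PPARGC1A (-0.75, FDR 0.00331). Reads of PCK1 were few, at 94, 90 and 108 in the vehicle and 10, 25 and 11 in the TGFβ cultures.

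**Figure D5:**
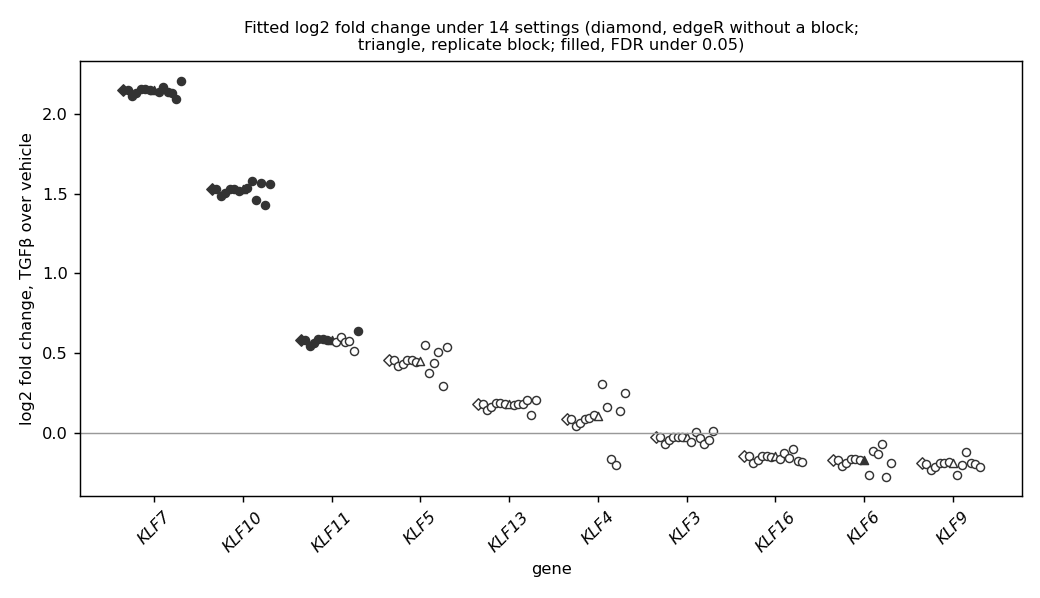
Fitted log2FC of the 10 members under 14 settings (diamond, edgeR without a block; triangle, with the block; circles, the other 12); filled symbols have an FDR under 0.05. KLF7 and KLF10 are filled throughout, KLF11 is open in 5 of the fits that leave out a culture, and KLF6 is filled only with the block.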

How the data were processed

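Messenger RNA libraries of 3 vehicle and 3 TGFβ cultures of HepG2 cells were made and sequenced by the authors. Reads were mapped to hg19 and summarized per gene with MAPRseq, and the submitters' processing notes list TopHat2 2.0.6 and HTSeq. The counts the authors deposited are raw whole numbers per gene. The RPKM values the authors deposited are per kilobase of coding length and served here only to order levels per length.

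All genes were fitted together in edgeR 4.0.16 (R 4.3.3, limma 3.58.1) after filterByExpr and TMM scaling, using the robust quasi-likelihood test with no replicate block. P values were adjusted by Benjamini-Hochberg over 22747 genes, and each SE follows from the F statistic. Alternatives changed the scaling (DESeq2 size factors, total counts), the filter (none, or 10 counts in each of the 6 libraries) or the tool (DESeq2 1.42.0, limma-voom), added the block, or left out single cultures. Between replicates, chi-square per gene was 21.0 to 46.2, so no library was a copy. Deviations from the group means correlated across genes at 0.366, 0.227 and 0.316 for equal culture numbers and at -0.304 to 0.0101 for unequal ones. Such deviations cancel over the cultures of a group, so the lower values at unequal numbers are not separate evidence. The numbers were therefore taken as pairs in the block and in the ratios within numbers. The test without a block did not use this pairing. The labels do not say whether cultures were grown separately, while the authors describe the sequenced samples as biological replicates. P values measure the spread between these samples.

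Members and gene lists were chosen with earlier results of these data known. Named are all 10 members, features that overlap them and, of each other list, genes at an FDR under 0.05 and the 2 with the highest level. KLF7P1, KLF1, KLF14, KLF17, SP7, SP8 and the cofactor genes added by the block were named after their values were seen. Target genes added by the block were not described. A called gene of the cofactor list is not reported here.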

Additional observations from a re-analysis of the deposited data

How the results depend on the processing

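KLF7 and KLF10 kept their direction and their call in all 13 alternatives. Among the 10 members, 3 were called higher in the fit of all 6 cultures and between 2 and 3 with a culture left out. The number lower moved from 0 to 1 with the replicate block. Of the other KLF and SP genes, 1 of the 11 tested was higher in the fit as reported and 2 of 15 without a filter. With at least 10 counts in every library it was 0 of 8, and that filter removed SP6 before testing. With the block 2 were higher, and 2 rather than 1 were lower. With single cultures left out between 0 and 1 were higher. Of the 20 cofactor genes, 2 were higher as reported, 1 with total-count scaling, 1 with limma-voom, 3 with DESeq2, 5 with the block and between 1 and 3 with a culture left out. Signs turned for KLF3 (log2 fold changes from -0.0708 to 0.0113 with a culture left out), KLF4 (-0.20 to 0.31) and SP9 (-0.45 to 0.0292), none of them called. The cause was not tested. The block changed no other call among the 21 KLF and SP genes tested than those of KLF6, SP3 and SP5. KLF4 had 13 to 51 reads a culture, and its counting error was not separated from the spread between cultures.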
